A study of Homo sapiens with 16 samples.

Results

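The circRNA table listed 116577 numbered circRNA entries in 16 libraries, and 3714 of them form the set described here. An entry belongs to the set when it had 0 reads in all 4 libraries of whole cells and at least 1 read in at least 6 of the 12 libraries of extracellular vesicles (EVs). Rows with equal values in every column were kept as a single entry. By this rule 4677 rows were found, and 963 of them were merged into another row because their values were equal throughout. The 3714 entries made up 9.49% of the 39116 distinct rows with reads in at least 6 EV libraries. The remaining 35402 of those rows had reads in at least 1 cell library. The entries were thus chosen by their values of 0 in cells and by the number of EV libraries above 0, and both, detection in single libraries included, are described without a test.

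The donor cells were PC3, a human prostate cancer line, and MDA-MB-231, a human breast cancer line (labelled MDA-231), both wild type and untreated and, per the labels, grown in DMEM with 5% FBS. The EVs came from medium that the cells had conditioned without serum. They were isolated by next-gen ATPS, an aqueous two-phase method in which EVs collect in a dextran phase that dextranase then breaks down, by ultracentrifugation (UC), or with the column-based Qiagen exoRNeasy kit. The UC libraries carry the abbreviation VC in the labels and are called UC here, because the extraction protocol names UC as the remaining method. Each of the 8 groups (cells and 3 EV isolations, for each line) had 2 libraries of small RNA. RNA from cells, next-gen ATPS EVs and UC EVs was extracted with TRIzol, and exoRNeasy RNA with its own column, so isolation and extraction cannot be told apart for exoRNeasy. The sources used here do not say whether both libraries of a group stem from separate cultures. The p-values below therefore rest on a spread between libraries that may be technical.

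Circular RNAs (circRNAs) form when the end of an exon is spliced back to an upstream exon start, which closes the molecule into a ring. Having no free ends, they resist exonucleases and are long-lived, and they have been found in EVs and body fluids, where they are studied as markers of disease. A circRNA is told apart from the linear RNA of the same gene only by reads that cross the back-splice junction. These libraries held reads of 18 to 35 bases that were assigned to circRNA annotations, and the study's methods name no step that tests for the junction. An entry below is therefore an annotated circRNA to which short reads were assigned, and whether those reads came from a ring was not tested. The table names entries by number only, so gene, position and sequence are not given here.

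The unit is TPM as the authors named it. Each value was the entry's share of the circRNA reads of its library, scaled to a total of 1000000 and without a term for length. Every value divided by that of 1 read gave a whole number, so reads could be recovered. The EV libraries held 137327661 to 399175187 circRNA reads, in which 1 read is worth 0.00251 to 0.00728 TPM. The cell libraries held 22455448 to 67987682 reads, apart from the second MDA-MB-231 cell library with 260466. Only 13 dominant entries, each with at least 1% of the reads of an EV library, took 90.2% to 97.3% of the reads in EV libraries. In 3 cell libraries they took 1.67% to 2.95%, and in the shallow MDA-MB-231 cell library 59.0%. No entry of the set is among the dominant ones. Since reads can be assigned to several entries, the totals need not be distinct reads, and intervals or limits from them cover counting error only.

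The entries seen only in EVs were rare. Their median total over the 12 EV libraries was 14 reads, ranging from 6 to 1602, and the median of their highest library was 4 reads. At least 10 reads in a library were reached by 395 entries, and at least 50 by 42. The median of their mean TPM was 0.00540, with a highest value of 0.588. The rows that had cell reads were somewhat more abundant in EVs, with a median of 25 reads and a mean TPM of 0.00961.

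The number of rows at 0 in cells rose from 62 for rows seen in 1 EV library to 2239 for rows seen in 4, and fell steeply beyond that. Of the entries in the set, 1359 had reads in exactly 6 EV libraries, 861 in 7, 558 in 8, 366 in 9, 245 in 10, 161 in 11 and 164 in all 12. Among all rows seen in 6 EV libraries 17.8% were at 0 in cells, while among rows seen in all 12 this was 2.99%. The rule's edge was not marked by a step in level. Rows at 0 in cells with 5 EV libraries, just outside the rule, numbered 1929 and had a median of 8 reads, against 10 reads for entries with 6 libraries. A further 4336 rows seen in at least 6 EV libraries missed the set by a single cell read, of which 2237 had that read in the second PC3 cell library, the deepest cell library. Those rows had a median of 15 EV reads.

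**Figure D1:**
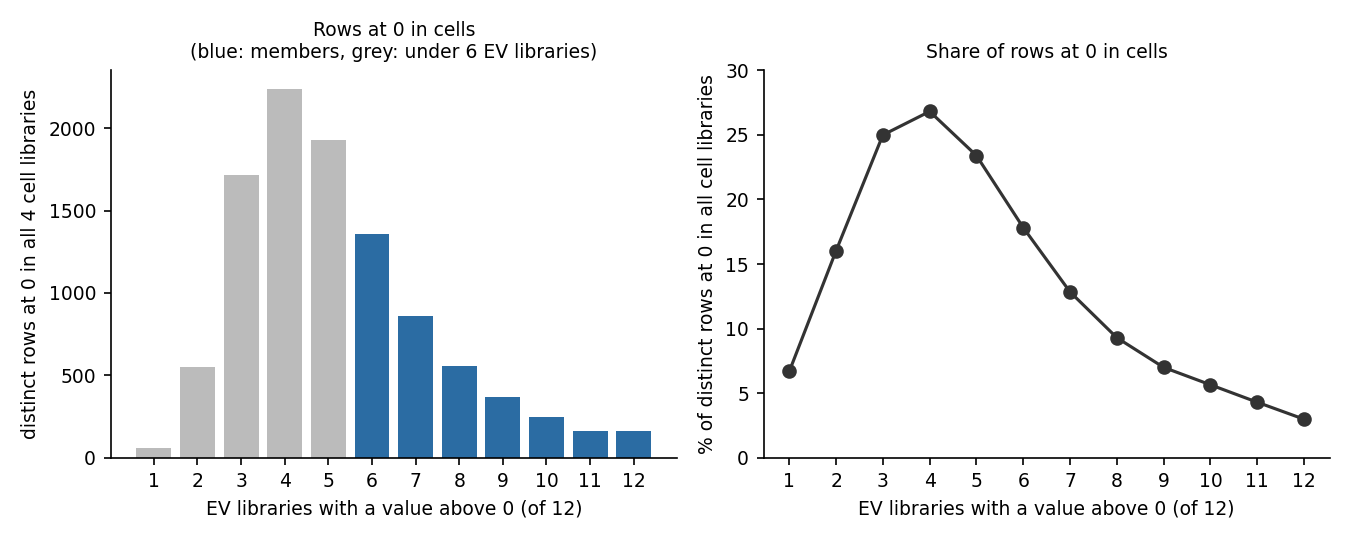
Left, distinct circRNA rows at 0 in all 4 cell libraries (y axis, count) by the number of EV libraries in which they had a read (x axis), with the entries of the set in blue and rows under 6 EV libraries in grey. Right, the percentage of all distinct rows that was at 0 in cells. It rises from 6.69% at 1 EV library to 26.8% at 4, and falls to 17.8% at 6 and 2.99% at 12.

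Whether a count of 0 in cells separates these entries from cellular RNA depends on the total against which the level is set. The 2 PC3 cell libraries together would show 3 reads at 0.0332 TPM and the MDA-MB-231 pair at 0.122 TPM. At each entry's own mean TPM in the EVs of the same line, the 4 cell libraries would hold a median of 0.607 reads, and more than 3 reads for only 140 entries. For any single one of the other 3574 entries, with at most 3 such reads, a count of 0 in cells did not exclude a cellular level equal to the EV level. When both levels were taken per read outside the 13 dominant entries, the same calculation gave a median of 13.8 reads, more than 3 reads for 3688 entries and more than 10 for 2601.

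**Figure D2:**
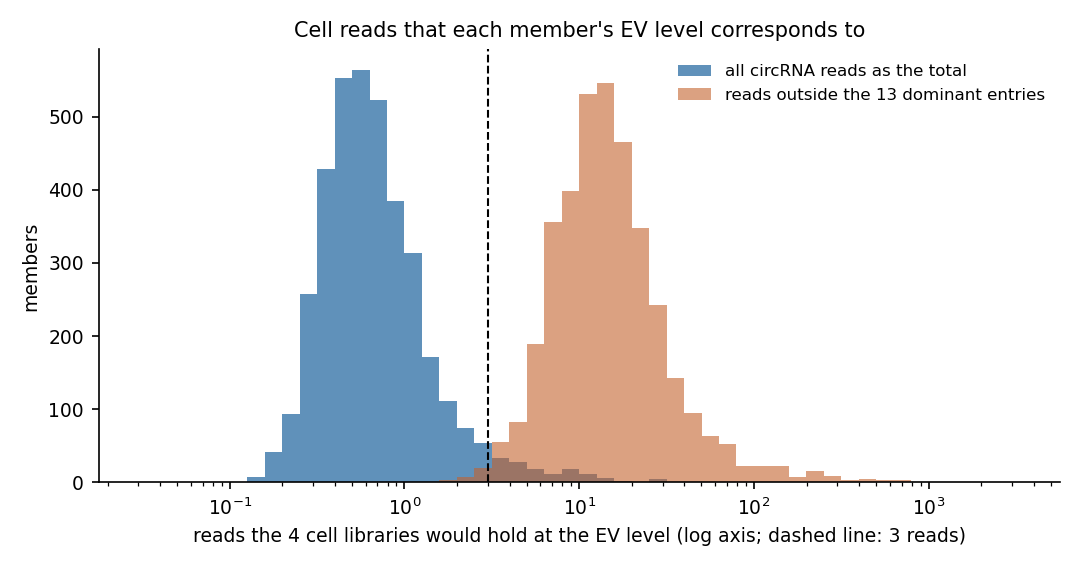
Histogram of the reads that the 4 cell libraries would hold together (x axis, log scale) if each of the 3714 entries had its EV level in the cells of the same line. With all circRNA reads as the total (blue) the median is 0.607 reads, and with reads outside the 13 dominant entries as the total (orange) it is 13.8 reads, on either side of the dashed line at 3 reads.

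The set also depended on which cell library was present. Without the second PC3 cell library 8787 entries would satisfy the rule, and without the first MDA-MB-231 cell library 5874. Without the first PC3 cell library the number was 4827, and without the shallow second MDA-MB-231 cell library 3723. That last library held few reads and removed almost no entry.

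Many entries of the set were not separate observations. There were 621 sets of 2 or more rows with equal values. The largest set held 12 rows with 15 reads each, numbered hsa_circ_0068360 to hsa_circ_0068363, hsa_circ_0068365 and hsa_circ_0123005 to hsa_circ_0123011. After such rows were merged, 524 pairs of entries still differed by at most 10% of their reads, and 302 of these pairs had numbers within 10 of each other. Altogether 845 entries fell into 370 such groups of near-equal entries, with at most 6 entries in a group, and 3239 entries remained if each group was counted as a single entry. Entries with adjoining numbers were often of the same kind. Of 3568 entries whose preceding or following number is in the table, 42.0% had a neighbour that was itself seen only in EVs, against 4.19% of the rows with cell reads. Nevertheless, 49.5% had a neighbour with cell reads (93.0% for the other rows). Neighbours included merged rows, so an entry's own equal copy counted as a neighbour seen only in EVs. A row with cell reads cannot have such a copy, so these shares are in part set by equal rows.

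None of 11 well-studied circRNAs belonged to the set. CDR1as (hsa_circ_0001946), a neuronal circRNA known for its many miR-7 sites, had 31 reads in 7 EV libraries and missed the rule by 1 cell read. The circRNA of CCDC66 (hsa_circ_0001313), which promotes growth of colon cancer cells, had no cell read but only 3 EV reads in 2 libraries. The other 9, circHIPK3, circSMARCA5, circFOXO3, circITCH, circZNF609, circMTO1, circFBXW7, circABCB10 and circTTBK2, all had cell reads, and none had more than 24 reads over the 12 EV libraries. For this list, which holds circRNAs best known from junction-based work, the libraries thus gave very few reads in either material.

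Reads in both lines were found for 3676 entries, and in MDA-MB-231 EVs alone for 38. Since the rule needs 6 EV libraries and each line has 6, presence in both lines is largely set by the rule. No entry was found in PC3 EVs alone. The most abundant of the 38, chosen after their values were seen, were hsa_circ_0100662 with 102 reads, hsa_circ_0112295 with 56 and hsa_circ_0019972 with 31. A wider count showed the same imbalance, with 368 entries in at least 5 MDA-MB-231 and at most 1 PC3 libraries and 30 in the opposite pattern. The MDA-MB-231 EV libraries had more reads, 207543553 to 399175187 against 137327661 to 181726515 for PC3, and counts at an equal threshold are given below. The PC3 cell libraries together held 90443130 reads and those of MDA-MB-231 24624390, and any cell read removed a row from the set. These patterns were not counted over all rows, so they cannot be read as a trait of either line. The cause of the imbalance was not tested.

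Each EV library held between 1438 and 3003 of the 3714 entries. Among PC3 libraries, next-gen ATPS held 1438 and 1513, UC 2348 and 2299, and exoRNeasy 2083 and 2249. Among MDA-MB-231 libraries, next-gen ATPS held 2736 and 2386, UC 3003 and 2943, and exoRNeasy 2973 and 2157. Within each isolation the MDA-MB-231 libraries were higher, except for the second exoRNeasy library, which lay within the PC3 exoRNeasy pair. PC3 EVs held 1988 ± 408 entries (SD, n = 6) and MDA-MB-231 EVs 2700 ± 352 (n = 6). The difference was -711 entries, with a pooled SD of 263 within groups. When an entry counted as detected only from the same level of 0.0218 TPM upward in every library, which is 3 reads in the shallowest EV library, the difference became 1 entry.

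Between isolations, the next-gen ATPS libraries held 2018 ± 644 entries (SD, n = 4), UC 2648 ± 376 (n = 4) and exoRNeasy 2366 ± 411 (n = 4). Next-gen ATPS was lower than UC in both lines without overlap, with a difference of -630 entries. The rows with cell reads went the same way. In PC3, next-gen ATPS detected 49.2% and 52.1% of those rows and UC 78.7% and 78.1%. In MDA-MB-231, next-gen ATPS detected 83.4% and 75.3% and UC 93.2% and 93.1%. The deficit was thus not particular to the set. The difference of -347 entries between next-gen ATPS and exoRNeasy was about the size of the pooled SD of 320. UC and exoRNeasy differed by 283 entries with a pooled SD of 296. From the same level of 0.0218 TPM upward in every library, next-gen ATPS held 135 and 145 entries in PC3 and 161 and 114 in MDA-MB-231. ExoRNeasy then held 330 and 400 in PC3 and 380 and 186 in MDA-MB-231, without overlap with next-gen ATPS (difference -185). At that level next-gen ATPS minus UC was -226 entries and UC minus exoRNeasy 40. All 3 isolations recovered 3521 of the entries, whereas 101 entries had no read in next-gen ATPS, 76 none in exoRNeasy and 16 none in UC. Reads in all 4 libraries of an isolation were found for 987 entries with UC, 725 with exoRNeasy and 434 with next-gen ATPS. These numbers and those from 0.0218 TPM upward were not counted over all rows, so they cannot be read as particular to the set.

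In summed level, next-gen ATPS libraries stood below the other isolations, while the lines differed by less than the spread between replicates. The TPM of all entries summed to 21.9 and 20.6 in PC3 next-gen ATPS, 21.5 and 19.1 in MDA-MB-231 next-gen ATPS, 34.99 and 31.1 in PC3 UC and 43.6 and 43.0 in MDA-MB-231 UC. In exoRNeasy the sums were 40.7 and 43.1 for PC3 and 41.5 and 26.8 for MDA-MB-231. The 4 next-gen ATPS libraries were thus the lowest 4 of the 12. PC3 EVs had 32.1 ± 9.39 TPM (SD, n = 6) and MDA-MB-231 EVs 32.6 ± 11.4 (n = 6), a difference of -0.518 with a pooled SD of 4.53 (two-sided exact permutation test of the line within isolation, p = 0.963). Next-gen ATPS had 20.8 ± 1.25 TPM (n = 4), against 38.2 ± 6.16 for UC and 38.0 ± 7.57 for exoRNeasy (two-sided exact permutation test within line, p = 0.056 in each case, the smallest p this design allows, adjusted p = 0.0833 over 3 pairs). UC and exoRNeasy differed by 0.152 TPM with a pooled SD of 5.47 (exact permutation p = 1).

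The share of the dominant entries moved with these sums. Per 1000000 reads outside the 13 dominant entries, the members' reads came to 756 and 770 in PC3 next-gen ATPS, 1018 and 916 in PC3 UC and 748 and 740 in PC3 exoRNeasy. In MDA-MB-231 they came to 381 and 409, 604 and 683, and 423 and 311. On this scale every PC3 library was above every MDA-MB-231 library, by 356 on average (exact permutation p = 0.00926, the smallest possible). The rule that chose the entries used these EV values and cell libraries of unequal depth, so this p is not independent of it. In the limma fit on this scale, described below, all rows leaned the same way. Their median log2 difference was 0.08, against 0.11 for the set, with 7.13% of all rows higher in PC3 and 4.16% lower. In the set's sum on this scale, next-gen ATPS was no longer below exoRNeasy (difference 23.8, exact permutation p = 0.5), while it remained 226 below UC (exact permutation p = 0.056). The order of the lines and that of next-gen ATPS and exoRNeasy therefore depended on whether the dominant entries were counted in the total.

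**Figure D3:**
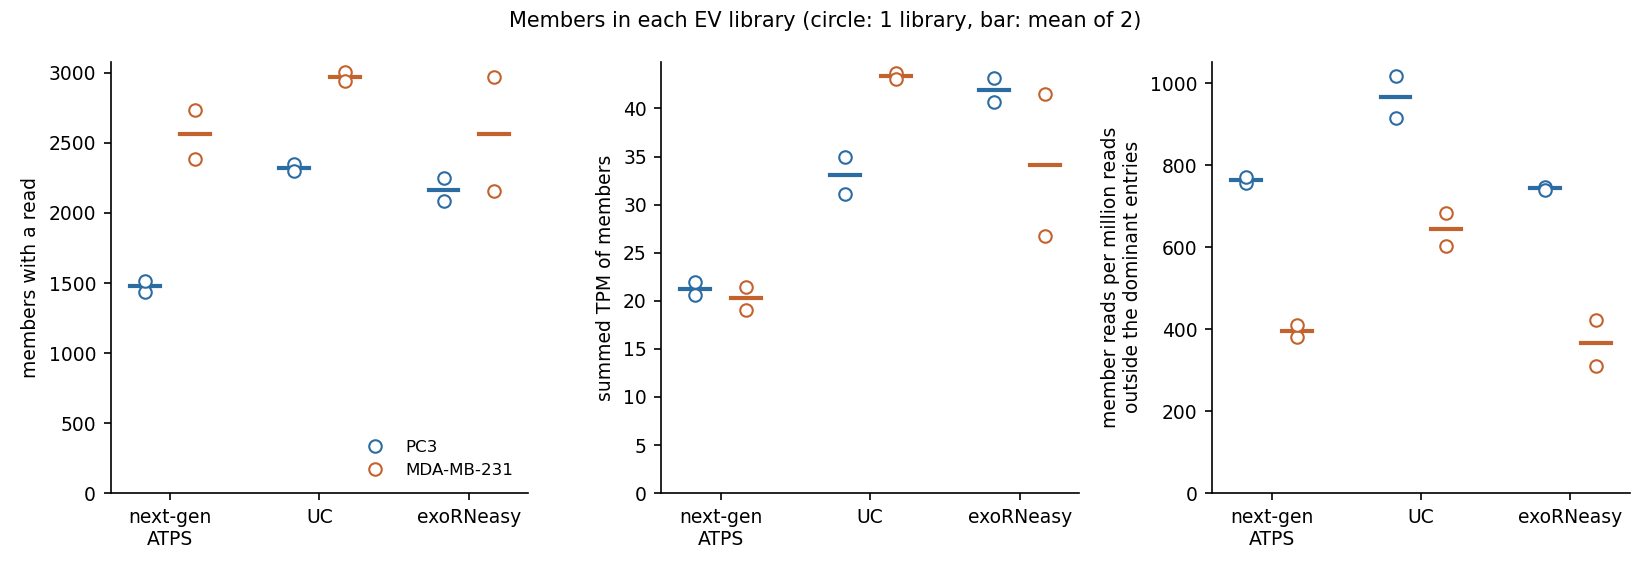
Entries of the set with a read (left, count), their summed TPM (middle) and their reads per 1000000 reads outside the 13 dominant entries (right) in each EV library, by isolation, with PC3 in blue and MDA-MB-231 in orange. Each circle is 1 library and each bar the mean of 2, and the order of the lines differs between the panels.

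The 2 libraries of a group shared fewer of these entries than of other rows. Of the entries with a read in either library of a group, 31.9% (PC3 next-gen ATPS) to 69.4% (MDA-MB-231 UC) had a read in both, against 43.8% and 88.7% of the more abundant rows with cell reads in the same groups. Levels were compared over the 164 entries with reads in all 12 libraries, which had a median of 77.5 reads and hold no zeros. Spearman's rho between libraries of the same group was 0.681 to 0.776 across these entries. Between isolations of the same line the median was 0.579, between the lines at the same isolation 0.333, and between both 0.224. Across all 5484 rows seen in all 12 libraries, the corresponding medians were 0.787 between isolations, 0.777 between the lines and 0.693 between both. These coefficients run across entries that share libraries and reads and are descriptions. Among entries seen only in EVs, the order of levels was thus less alike between the lines than between isolations of a line.

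The most abundant entry was hsa_circ_0116818, with 1602 reads in all and reads in every EV library. Its TPM was 0.527 and 0.534 in PC3 next-gen ATPS, 0.669 and 0.468 in PC3 UC, 0.412 and 0.415 in PC3 exoRNeasy, 0.529 and 0.689 in MDA-MB-231 next-gen ATPS, 0.489 and 0.510 in MDA-MB-231 UC and 0.722 and 1.09 in MDA-MB-231 exoRNeasy. The groups overlapped, and no comparison of lines or isolations passed the test (adjusted p from 0.365 to 0.925 for the 4 comparisons). The mean of 0.504 TPM in PC3 EVs was at least 15.2-fold above the 3-read limit of the PC3 cell libraries, and the mean of 0.671 TPM in MDA-MB-231 EVs at least 5.51-fold above that of the MDA-MB-231 cell libraries. It is thus the clearest case of a level in EVs that the cell libraries would have shown. hsa_circ_0035964 was also present throughout, at 0.0612 to 0.481 TPM, and the ranges of the lines overlapped (adjusted p = 0.592).

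**Figure D4:**
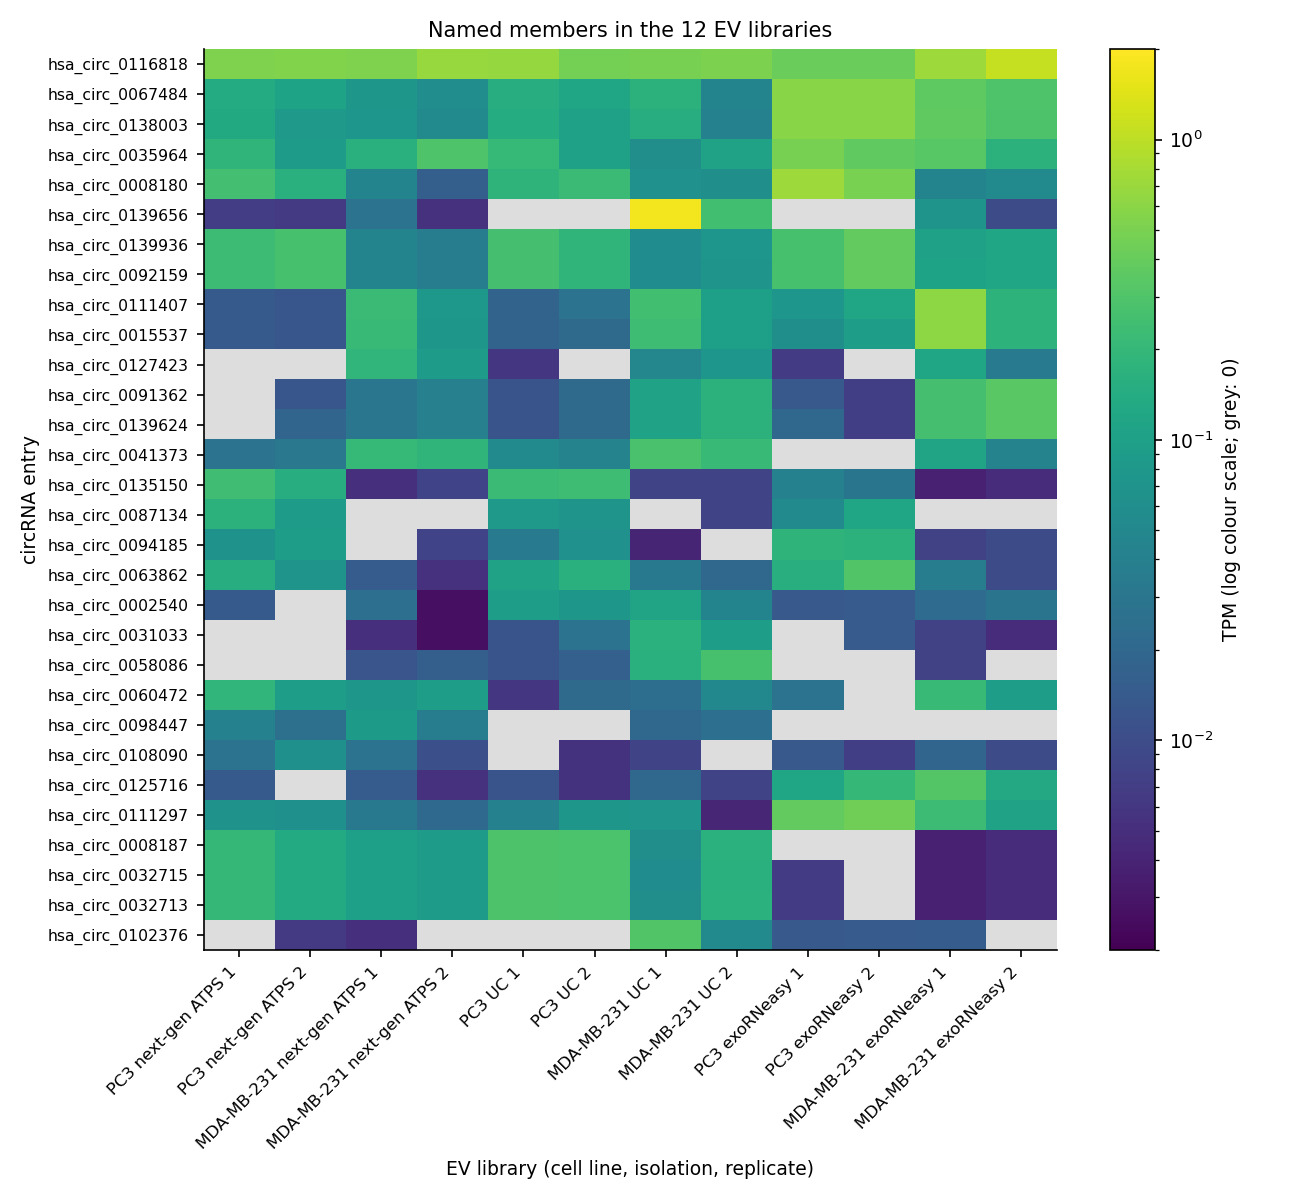
TPM (log colour scale, grey for 0) of the named entries (rows) in the 12 EV libraries (columns, ordered by isolation, line and replicate). hsa_circ_0116818 is high throughout, hsa_circ_0135150 and hsa_circ_0008180 are brighter in PC3, hsa_circ_0111407 and hsa_circ_0127423 in MDA-MB-231, and the trio of hsa_circ_0008187, hsa_circ_0032715 and hsa_circ_0032713 is dark or grey in exoRNeasy.

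The levels of single entries were compared with limma on log2(TPM + 0.02) over all 39116 rows, where a fold change understates the change of low entries. Between PC3 and MDA-MB-231 EVs, averaged over isolations, 109 entries of the set were higher in PC3 and 177 lower at an adjusted p under 0.05. That is 2.93% and 4.77% of the set, while over all rows 2.62% were higher and 10.8% lower. The median log2 difference was -0.02 for the set and -0.12 for all rows. Of the called entries, only 22 of the 109 and 16 of the 177 had reads in all 6 libraries of the line where they were lower. All others met the 6-library rule only with the line where they were higher, so their calls are not independent of the rule. Reads in at most 2 libraries of the lower line were found for 41 of the 109 and 121 of the 177. Among the 164 entries with reads in all 12 libraries, 22 were higher in PC3 and 16 lower (13.4% and 9.76%), against 9.45% and 19% of the 5484 rows of that kind. The split within the set turned with the scaling. After quantile normalization, which moved the median of all rows to 0.02, 187 were higher and 89 lower, while of all rows 4.32% were higher and 5.47% lower. Per read outside the dominant entries, which moved that median to 0.08, the counts were 217 and 70, against 7.13% and 4.16% of all rows. With edgeR on recovered reads they were 78 and 108, against 1.98% and 8.66%, and with DESeq2 50 and 50, against 1.51% and 5.57%. Across limma, both of these scalings, edgeR and DESeq2, 48 entries were higher in PC3 and 39 lower in every setting. These are 1.29% and 1.05% of the set, against 1.47% and 3.23% of all rows. How many of them had reads in all 6 libraries of the lower line was not counted, so the same limit holds for them. The limma counts also moved when a library was left out, which leaves its group with a single library. Over all rows the counts moved as well, so this movement cannot be read as particular to the set.

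**Figure D5:**
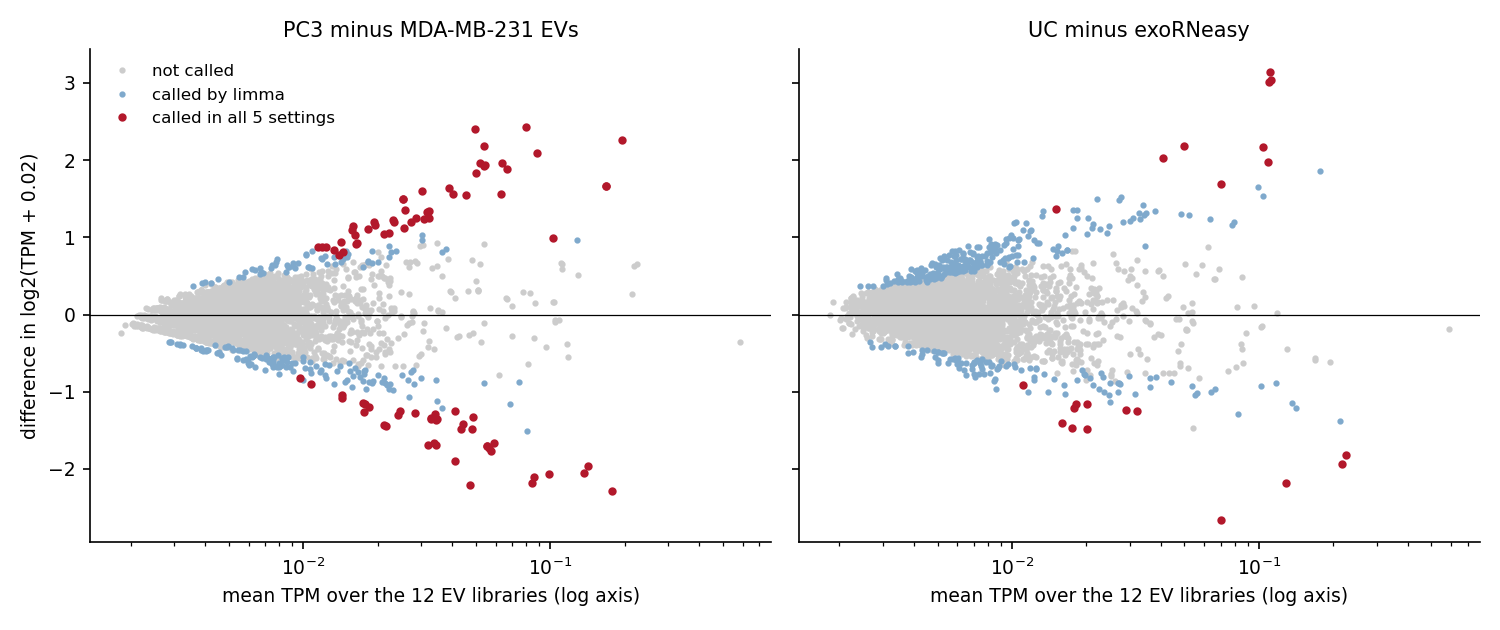
Difference in log2(TPM + 0.02) of each of the 3714 entries (y axis) against its mean TPM over the 12 EV libraries (x axis, log scale), for PC3 minus MDA-MB-231 (left) and UC minus exoRNeasy (right). Grey points were not called, blue points were called by limma at an adjusted p under 0.05 and red points in all 5 settings (48 higher and 39 lower on the left, 9 higher and 13 lower on the right).

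Among called entries whose lines did not overlap within any isolation, hsa_circ_0135150 had the largest excess in PC3. It had reads in all 12 libraries. Its PC3 libraries held 0.239 and 0.148 TPM with next-gen ATPS, 0.221 and 0.237 with UC and 0.0412 and 0.0291 with exoRNeasy, and its 6 MDA-MB-231 libraries 0.00376 to 0.00830 TPM, which is 1 to 3 reads. The log2 difference was 2.43 (SE 0.25, limma adjusted p = 5.16e-09) and was called in all 5 settings. It was thus near the level of a single read in MDA-MB-231 EVs and lowest in exoRNeasy within PC3.

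hsa_circ_0087134 had 24 and 14 reads in PC3 next-gen ATPS, 14 and 13 in UC and 8 and 16 in exoRNeasy, against 2 reads in the second MDA-MB-231 UC library and 0 in the other 5. It passed the 6-library rule through PC3, where it is high, so its reads are given without a test. hsa_circ_0008180, the most abundant of the entries higher in PC3, had 0.253 and 0.161 TPM in PC3 next-gen ATPS, 0.179 and 0.220 in UC and 0.728 and 0.502 in exoRNeasy. In MDA-MB-231 it had 0.0160 to 0.0653 TPM (log2 difference 2.25, SE 0.27, adjusted p = 8.88e-08). Its PC3 exoRNeasy libraries were thus its highest 2 of 12, the reverse of hsa_circ_0135150.

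hsa_circ_0094185 had 0.0359 to 0.179 TPM in PC3 and at most 0.00964 in MDA-MB-231 (log2 difference 2.18, adjusted p = 4.31e-08). hsa_circ_0063862 had 0.0707 to 0.306 TPM in PC3 and 0.00534 to 0.0376 in MDA-MB-231 (log2 difference 2.09, adjusted p = 9.65e-07). Both were therefore separated over all 12 libraries. hsa_circ_0094185 met the 6-library rule only with the PC3 libraries, where it is high. Its adjusted p is thus not independent of how the entry was chosen. A further pair, hsa_circ_0139936 and hsa_circ_0092159, differed by only 2 of 358 reads despite numbers far apart, so it counts as a single observation. For hsa_circ_0139936, PC3 libraries held 0.182 to 0.379 TPM and MDA-MB-231 libraries 0.0374 to 0.116 (log2 difference 1.66, SE 0.26, adjusted p = 1.11e-05).

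In the other direction, hsa_circ_0127423 had 76 and 34 reads in MDA-MB-231 next-gen ATPS, 12 and 18 in UC and 31 and 7 in exoRNeasy, against 0 or 1 read in each PC3 library. It passed the rule through MDA-MB-231, where it is high, and is given without a test. hsa_circ_0041373 had 0.0434 to 0.277 TPM in MDA-MB-231 and 0 to 0.0538 in PC3, with no read in either PC3 exoRNeasy library (log2 difference -2.07, SE 0.26, adjusted p = 3.98e-07). For both entries the lines did not overlap at any isolation. hsa_circ_0041373 also met the rule only with the MDA-MB-231 libraries, so its adjusted p is not independent of how the entry was chosen.

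hsa_circ_0091362 and hsa_circ_0139624 differed by 2 of 247 reads and were 1 observation. For hsa_circ_0091362, MDA-MB-231 held 0.0301 and 0.0400 TPM in next-gen ATPS, 0.106 and 0.170 in UC and 0.263 and 0.337 in exoRNeasy, and PC3 libraries 0 to 0.0220 TPM (log2 difference -2.19, SE 0.26, adjusted p = 9.84e-08). The same held for hsa_circ_0111407 and hsa_circ_0015537, which differed by 13 of 442 reads. For hsa_circ_0111407, MDA-MB-231 held 0.0801 to 0.621 TPM and PC3 0.0129 to 0.117 (log2 difference -1.97, SE 0.31, adjusted p = 1.15e-05), with the lines apart within each isolation though their ranges over all libraries overlapped.

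Between isolations, most limma calls followed the overall shift of the table. Next-gen ATPS against UC gave 9 entries higher and 358 lower, where 0.151% and 33.9% of all rows were called. The set's share of lower entries, 9.64%, was below that, and the median log2 difference was -0.18 for the set and -0.41 for all rows. After quantile normalization, which moved the median of all rows to 0.01, there were 39 higher and 2 lower (1.5% and 1.56% of all rows). With edgeR there were 16 and 3 (1.3% and 3.11% of all rows), and with DESeq2 14 and 0 (1.3% and 1.94% of all rows), with 6 lower at an unadjusted p under 0.05. No entry was lower in next-gen ATPS than in UC in all 5 settings and 6 were higher (0.123% of all rows were higher in all 5 and 1.18% lower). The counts below each leave out a library, and the counts over all rows fell in the same fits. The 358 lower entries became 187 and 180 without the first and second PC3 next-gen ATPS library and 169 and 131 without the first and second MDA-MB-231 next-gen ATPS library. The 9 higher entries became 5 without the first PC3 next-gen ATPS, the first MDA-MB-231 next-gen ATPS or the first MDA-MB-231 UC library.

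Of the entries higher in next-gen ATPS than in UC in all 5 settings, hsa_circ_0060472 had 0.190 and 0.0965 TPM in PC3 next-gen ATPS and 0.0777 and 0.0934 in MDA-MB-231 next-gen ATPS, against 0.00598 and 0.0220 in PC3 UC and 0.0245 and 0.0498 in MDA-MB-231 UC (log2 difference 1.58, SE 0.35, adjusted p = 0.000857). It did not differ from exoRNeasy by the test (adjusted p = 0.247), where it ranged from 0 to 0.214 TPM. hsa_circ_0098447 was the entry with most reads among the 76 without a read in exoRNeasy. It had 6, 4, 34 and 14 reads in the next-gen ATPS libraries, 0 in PC3 UC and 5 and 6 in MDA-MB-231 UC. Its 6 libraries with reads were all outside exoRNeasy and just met the rule, so these reads are given without a test. hsa_circ_0108090 had 4 to 11 reads in each next-gen ATPS library and 0 to 2 in each UC library (log2 difference 1.09, adjusted p = 0.00296).

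The following 3 entries had the largest deficit in next-gen ATPS against UC among called entries that did not overlap within either line. For hsa_circ_0002540 (log2 difference -1.79, SE 0.32, adjusted p = 9.05e-05) UC held 0.0456 to 0.114 TPM and next-gen ATPS 0 to 0.0251. This entry was not called after quantile normalization (log2 difference -1.001, adjusted p = 0.0879) or with DESeq2 (-2.07, adjusted p = 0.0938). hsa_circ_0031033 had 40 and 23 reads in MDA-MB-231 UC and at most 5 elsewhere. hsa_circ_0058086 had 39 and 65 reads in MDA-MB-231 UC and at most 6 elsewhere. In the last 2 the reads were thus mostly those of the MDA-MB-231 UC libraries. Both passed the 6-library rule through the UC libraries, where they are high, so their reads are given without a test.

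Next-gen ATPS against exoRNeasy gave 13 entries higher and 52 lower (0.583% and 1.62% of all rows), and UC against exoRNeasy 252 higher and 125 lower (26.1% and 1.93% of all rows). In all 5 settings the counts were 12 higher and 5 lower for next-gen ATPS (0.575% and 0.151% of all rows) and 9 higher and 13 lower for UC (4.37% and 0.355% of all rows). The medians of the set, -0.15 and 0.02, stood beside -0.14 and 0.26 for all rows. Quantile normalization, which moved the medians of all rows to 0.00 and -0.02, gave 29 higher and 36 lower for next-gen ATPS (1.31% and 0.913% of all rows). For UC it left 24 higher (6.56% of all rows) and 5.82% of the set lower (5.01% of all rows). Per read outside the dominant entries the counts were 19 and 10 for next-gen ATPS (1.6% and 0.205% of all rows) and 294 and 34 for UC (29.9% and 0.588% of all rows). Each count below comes from a fit with a library left out, and the count over all rows moved in the same direction. The 52 lower entries became 20, 18, 19 and 17 when the first or second PC3 and the first or second MDA-MB-231 next-gen ATPS library was left out, 23 without the first MDA-MB-231 exoRNeasy library and 105 without the first PC3 exoRNeasy library. The 13 higher entries became 7 without the first PC3 next-gen ATPS library and 8 without the second MDA-MB-231 next-gen ATPS or the second PC3 exoRNeasy library. For UC the 252 became 146 without the second MDA-MB-231 exoRNeasy library. The 125 became 77 without the first PC3 UC library, 79 and 70 without the first and second MDA-MB-231 UC library and 76 without the first MDA-MB-231 exoRNeasy library.

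A few entries separated exoRNeasy from both other isolations in all 5 settings. hsa_circ_0125716 had 0.117 and 0.197 TPM in PC3 exoRNeasy and 0.316 and 0.130 in MDA-MB-231 exoRNeasy, and 0 to 0.0204 in the 8 other EV libraries. It was lower by 2.82 on the log2 scale in next-gen ATPS (log2 difference -2.82, SE 0.33, adjusted p = 4.06e-07) and by about as much in UC (log2 difference -2.66, SE 0.33, adjusted p = 1.81e-07). No library of the other isolations reached the exoRNeasy range.

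hsa_circ_0067484 and hsa_circ_0138003 differed by 22 of 511 reads and are 1 observation, with the highest mean levels of the set after hsa_circ_0116818. For hsa_circ_0138003, exoRNeasy libraries held 0.584 and 0.590 TPM in PC3 and 0.369 and 0.289 in MDA-MB-231, and the other 8 libraries 0.0415 to 0.147 (log2 difference -2.16 for next-gen ATPS, SE 0.34, adjusted p = 8.78e-05, and -1.93 for UC, SE 0.34, adjusted p = 5.01e-05). hsa_circ_0111297 followed the same order, with 0.106 to 0.444 TPM in exoRNeasy and 0.00415 to 0.0770 elsewhere (log2 difference -2.11 for next-gen ATPS, adjusted p = 0.000381, and -2.19 for UC, adjusted p = 2.67e-05).

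The opposite pattern was that of 3 near-equal entries, hsa_circ_0008187, hsa_circ_0032713 and hsa_circ_0032715, which differed by 1 to 4 of 280 reads and count as a single observation. hsa_circ_0008187 had 28 and 21 reads in PC3 next-gen ATPS, 39 and 33 in MDA-MB-231 next-gen ATPS, 49 and 52 in PC3 UC and 15 and 40 in MDA-MB-231 UC, while the 4 exoRNeasy libraries held 0, 0, 1 and 1. In TPM that is 0.0612 to 0.293 against at most 0.00482. The log2 difference was 2.71 for next-gen ATPS (SE 0.33, adjusted p = 7.52e-07) and 3.15 for UC (SE 0.33, adjusted p = 5.56e-09). It thus had at most 1 read in exoRNeasy libraries in which hsa_circ_0138003 had 60 to 98.

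Method differences that themselves differed between the lines were few. The next-gen ATPS against UC difference was more positive in PC3 for 11 entries and more negative for 0, where 0.688% and 0.0179% of all rows were called. At an unadjusted p under 0.05 limma gave 200 and 47, edgeR called 0 more positive and 2 more negative, and DESeq2 called 0 in either direction. The UC against exoRNeasy difference was more positive in PC3 for 5 and more negative for 30 (0.118% and 2.49% of all rows). For next-gen ATPS against exoRNeasy limma called 0 entries in either direction (0.0153% and 0.0409% of all rows), with 83 more positive and 162 more negative at an unadjusted p under 0.05, while edgeR called 1 more positive and DESeq2 none. No such difference was called in all 5 settings. In the fits named below the counts over all rows moved in the same direction, except without the first PC3 exoRNeasy library. The counts moved with almost every library left out, over 0 to 14 for the 11 and over 7 to 49 for the 30. The 11 became 0 without the first PC3 next-gen ATPS, the second MDA-MB-231 next-gen ATPS or the first PC3 UC library, 1 without the second PC3 UC library, 3 without the second PC3 next-gen ATPS library and 4 without the first MDA-MB-231 next-gen ATPS library. The 30 became 18, 17 and 18 without the second PC3, the first MDA-MB-231 and the second MDA-MB-231 next-gen ATPS library, 8 and 11 without the first and second PC3 UC library, 49 without the first PC3 exoRNeasy library and 7 without the second MDA-MB-231 exoRNeasy library.

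Some entries owed their level to a single library. More than 50% of the reads fell in 1 library for 62 entries, in the second MDA-MB-231 UC library for 26, in the first MDA-MB-231 UC library for 14, in the first PC3 exoRNeasy library for 10 and in the first MDA-MB-231 exoRNeasy library for 8. The same was not counted over all rows, so these numbers cannot be read as particular to the set. The most extreme of the abundant entries was hsa_circ_0139656, the sixth highest by mean TPM. Of its 526 reads, 431 (81.9%) were in the first MDA-MB-231 UC library and 59 in its partner, with 2 to 19 in each of the other 4 MDA-MB-231 libraries and 0 or 1 in each PC3 library. It passed the rule through the MDA-MB-231 libraries, and its place among the highest entries rests on that library.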

How the data were processed

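Small RNA of 16 libraries from PC3 and MDA-MB-231 cells and their EVs was sequenced by the authors on an Illumina instrument. Reads under Q20 were discarded by them, and those of 18 to 35 bases were aligned with STAR to the hg38 build, as the submitters' notes also say, and annotated with COMPSRA. No versions are stated. What the authors deposited as TPM is CPM over the circRNA reads of a library, so an entry appears lower where others take more of the reads. Divided by the value of 1 read, 100% of values came out whole (tolerance 0.1 read). Reads recovered this way range from 260466 to 399175187 per library and set the precision. Tables of other RNA classes were not used.

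Rows above 0 in at least 6 of 12 EV libraries, equal rows kept as 1, were compared with limma 3.58.1 (R 4.3.3, trend and robust) on log2(TPM + 0.02), with 1 mean for each of 6 EV groups and Benjamini-Hochberg adjustment over 39116 rows at 0.05. The pseudocount and the filter fit levels far under 1 TPM. Summed levels per library were compared by two-sided exact permutation of line within isolation or of isolation within line. The summed levels hold EV values to which the rule was applied, so their p-values are not independent of the rule. Numbers of entries detected, which the rule used, are given without a test. Alternatives were other pseudocounts and filters, quantile normalization, reads outside the dominant entries, edgeR 4.0.16 and DESeq2 1.42.0 on recovered reads, a replicate block and leaving out each library. A call in all 5 settings means limma, both of these scalings, edgeR and DESeq2 in the same direction, and an entry without an adjusted p from DESeq2 counts as not called there. In data simulated for the line comparison (39116 rows), limma found 30 of 100 entries changed 4-fold and 88 of 100 changed 8-fold, with 3 false calls. The result was not split by the set and covers no comparison of isolations. It is thus no measure of the accuracy of the calls reported here.

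Entries were named by rule: the 10 highest by mean TPM, the 5 highest with reads in all 12 EV libraries, the 5 largest called changes in each direction between lines and 3 in each direction per isolation pair without overlap within strata, and the 3 largest differences of method effects between lines. Those named outside it are so marked. The entries, the lists and the tests were chosen with earlier results of these data known. Counting near-equal entries as 1, and the joint count over 5 settings, were added after seeing the data. Python 3.11.15 with numpy 2.4.6 and pandas 2.3.3 was used for all other steps.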

Additional observations from a re-analysis of the deposited data

Results flagged for a closer look

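For 3 of the named entries, a difference between isolations differed between the lines in the interaction term of the limma fit. The values below are the difference in PC3 minus that in MDA-MB-231, for limma on the log2(TPM + 0.02) scale with adjusted p over 39116 rows. No such difference was called in all 5 settings, and values fitted by edgeR and DESeq2 are no bounds where libraries are at 0. All 3 entries met the 6-library rule only with the MDA-MB-231 libraries, where most of their reads fell. The adjusted p-values below are thus not independent of how the entries were chosen. The calls are given as descriptions and lend no support to a difference.

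hsa_circ_0139656 had 11 and 2 reads in MDA-MB-231 next-gen ATPS, 431 and 59 in UC and 19 and 2 in exoRNeasy, and 0 or 1 in each PC3 library. The difference between next-gen ATPS and UC was 4.72 more positive in PC3 (limma adjusted p = 0.00954). It was not called after quantile normalization (3.41, adjusted p = 0.368), with edgeR (8.16, adjusted p = 0.170), with DESeq2 (7.46, adjusted p = 0.169) or at pseudocounts of 0.1 and 1 TPM (2.88 and 0.876, adjusted p = 0.136 and 0.213). The limma call was lost in 5 of the 12 fits that left out 1 library, those without either PC3 next-gen ATPS, either PC3 UC or the second MDA-MB-231 next-gen ATPS library, and the value ranged from 3.35 to 6.10. The difference between UC and exoRNeasy was -3.72 (limma adjusted p = 0.0231). It was not called after quantile normalization (-2.53, adjusted p = 0.228), with edgeR (-3.58, adjusted p = 1.00), with DESeq2 (-4.17, adjusted p = 0.420), with no filter (adjusted p = 0.0664) or at any other pseudocount (adjusted p from 0.0618 to 0.199). Leaving out 1 library ended the call in 6 of 12 fits, those without either PC3 UC, either PC3 exoRNeasy, the first MDA-MB-231 UC (-2.35, adjusted p = 0.0682) or the second MDA-MB-231 exoRNeasy library, with values from -5.09 to -2.35.

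hsa_circ_0058086 had 39 and 65 reads in MDA-MB-231 UC, 5 and 6 in next-gen ATPS, and 2 and 0 in exoRNeasy. In PC3 it had 2 and 3 reads in UC and none in the other isolations. Its difference between UC and exoRNeasy was -2.51 (limma adjusted p = 0.00971). It was not called after quantile normalization (-1.55, adjusted p = 0.232), per read outside the dominant entries (-1.94, adjusted p = 0.0950), at a pseudocount of 0.005 TPM (-2.81, adjusted p = 0.223) or with edgeR, where it turned to 0.01 (adjusted p = 0.913). DESeq2 gave -1.42 and no adjusted p. The limma call was also lost without the first PC3 UC (-2.41, adjusted p = 0.0521) or the second MDA-MB-231 exoRNeasy library (-2.28, adjusted p = 0.0669).

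hsa_circ_0102376 had 75 and 13 reads in MDA-MB-231 UC, of 99 in all, and at most 4 in any other library. Its difference between next-gen ATPS and UC was 2.996 more positive in PC3 (limma adjusted p = 0.0186). It was not called after quantile normalization (2.06, adjusted p = 0.442), per read outside the dominant entries (2.70, adjusted p = 0.0799), with edgeR (7.32, adjusted p = 0.743), with no filter (adjusted p = 0.117) or at any other pseudocount (adjusted p from 0.116 to 0.220), and DESeq2 gave 6.66 and no adjusted p. Leaving out 1 library ended the call in 6 of 12 fits, those without either PC3 next-gen ATPS, either PC3 UC, the second MDA-MB-231 next-gen ATPS or the first MDA-MB-231 UC library (1.93, adjusted p = 0.0694), with values from 1.93 to 4.07. The difference between UC and exoRNeasy was -3.32 (limma adjusted p = 0.00289), with values from -4.39 to -2.25 in the 12 fits without 1 library. It was also called with edgeR (-7.91, adjusted p = 0.0322) and per read outside the dominant entries (-2.96, adjusted p = 0.0265). It was not called after quantile normalization (-2.29, adjusted p = 0.0626) or at pseudocounts of 0.1 and 1 TPM (-1.41 and -0.240, adjusted p = 0.101 and 0.168). DESeq2 gave -7.49 and no adjusted p. In all 3 entries the reads were highest in the MDA-MB-231 UC libraries.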

How the results depend on the processing

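The set held 7882, 1494, 570 or 164 entries when reads were required in at least 4, 8, 10 or 12 EV libraries, and 357 when a library counted only from 3 reads. Leaving out a library gave 2702 to 8787. The PC3 minus MDA-MB-231 difference in entries detected was 1 at an equal TPM threshold, and leaving out a library gave -847 to -575. In summed level it was 0.0018 on the log2 scale and 356 per 1000000 reads outside the dominant entries, where next-gen ATPS minus exoRNeasy was 23.8. Leaving out a library gave -2.98 to 1.94 TPM, 0.135 without the second PC3 UC and 1.94 without the first MDA-MB-231 exoRNeasy library. UC minus exoRNeasy was -3.53 to 3.84, with -0.827 without the first PC3 UC, -0.00235 without the first MDA-MB-231 UC, -0.453 without the first PC3 exoRNeasy and -3.53 without the second MDA-MB-231 exoRNeasy library. The other differences between isolations were -718 to -543, -551 to -143 and 78.8 to 487 entries and -18.4 to -16.4 and -21.0 to -13.6 TPM.

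Entries called higher and lower in PC3 numbered 69 and 104 with no filter, 187 and 89 after quantile normalization, 217 and 70 outside the dominant entries, 108 lower with edgeR, and 50 and 50 with DESeq2. Without 1 library the ranges were 69 to 137 and 112 to 223. Next-gen ATPS against UC gave 222 lower at a pseudocount of 1 TPM, 213 with no filter, 39 higher and 2 lower after quantile normalization, 16 higher outside the dominant entries, 16 and 3 with edgeR and 14 and 0 with DESeq2. The ranges without 1 library were 5 to 11 and 131 to 410. Against exoRNeasy, next-gen ATPS gave 8 higher at a pseudocount of 1 TPM, 7 and 14 with no filter, 29 higher after quantile normalization, and 10, 13 and 6 lower outside the dominant entries, with edgeR and with DESeq2. With 1 library fewer there were 7 to 13 and 17 to 105. UC gave 79 lower with no filter, 24 and about 2.2e+02 after quantile normalization, 34 lower outside the dominant entries, 31 and 82 with edgeR and 11 and 35 with DESeq2. Dropping a library gave 146 to 262 and 70 to 172.

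Differences of method effects between lines were called for the following numbers. For next-gen ATPS against UC, more positive in PC3, they were 1, 30 and 32 at pseudocounts of 0.005, 0.1 and 1 TPM, 2 with no filter, 0 after quantile normalization, 4 outside the dominant entries and 0 with edgeR and DESeq2. More negative were 3 and 8 at 0.1 and 1 TPM and 2 with edgeR. With a library dropped there were 0 to 14 and 0 to 2. For next-gen ATPS against exoRNeasy they were 1 and 1 at 1 TPM and 1 more positive with edgeR. With a library dropped there were 0 to 1 and 0 to 5. For UC against exoRNeasy, 1, 15 and 15 were more positive at the 3 pseudocounts, 1 with no filter, after quantile normalization or outside the dominant entries, and 2 with edgeR and DESeq2. More negative were 7, 73 and 85 at the 3 pseudocounts, 10 with no filter, 0 after quantile normalization, 8 outside the dominant entries, 1 with edgeR and 0 with DESeq2. Leaving out a library gave 1 to 7 and 7 to 49. The cause of these changes was not tested. A filter of 1 TPM in at least 2 EV libraries left 0 entries and gave no value.

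Deviations of libraries with the same replicate number were little correlated in most pairs of groups (r from -0.0216 to 0.297 over 15 pairs of groups, 3 of them over 0.1). These values do not show whether the numbers pair the samples. With a replicate block the difference between the lines stayed at -711 entries, and the line calls were 113 and 186. The block added 1 call to the next-gen ATPS against exoRNeasy interaction, more positive in PC3, and kept all other counts within 1.5 times. Of the called values of named entries under all alternatives that gave an adjusted p, 726 kept their side of the threshold, 51 lost it and 1 turned, that of hsa_circ_0058086 for UC against exoRNeasy between the lines with edgeR (0.0123).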
